A study of Mus musculus with 14 samples.

Results

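RNA levels of 9 marker genes of monocytes and macrophages were described in 14 mouse libraries. The genes were Adgre1, Cd68, Mrc1, C1qa, C1qb, Cd14, Lyz2, Fcgr3 and Fcgr1. They were taken by name from a fixed list and not ranked by their values, but the list was chosen with earlier results of these data known. They are 9 of the 52550 genes in the count table. The study asked how the leukemic fusion gene MLL-AF9 and the loss of the microRNA gene Mir139 act on early blood cells. WT HSPC samples (n = 4) were bone marrow cells from the femur and tibia of wild-type C57BL/6 mice aged 8 to 20 weeks, enriched for hematopoietic stem and progenitor cells with a kit that removes cells carrying lineage markers. Mir139KO HSPC samples (n = 4) were the same kind of cells from C57BL/6 mice in which Mir139 had been deleted. MLL-AF9 samples (n = 6) were WT HSPCs that had been grown overnight with SCF, GM-CSF and the interleukins IL-3 and IL-6, infected with a retrovirus that carries MLL-AF9, selected with a drug and replated at least 2 times in methylcellulose. After replating, the MLL-AF9 cells were expanded further in medium with serum and the same cytokines (SCF, GM-CSF, IL-3 and IL-6). Of the 6 samples, replicates 1 to 3 carried a neomycin resistance vector (neo) and replicates 4 to 6 a puromycin resistance vector (puro). The protocol says that HSPCs were lysed at once or expanded in cytokines, without a statement for each sample. No sample was labelled as HSPCs cultured without MLL-AF9, so the fusion and the culture cannot be told apart. The labels do not say that replicates came from separate mice or cultures, so p-values measure the spread between these libraries only, which may be technical.

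Monocytes leave the bone marrow for the blood, and in tissues they can become macrophages, cells that take up microbes, dying cells and debris. Resident macrophages of the marrow also sit in erythroblastic islands and in the stem cell niche. The 9 genes encode parts of this machinery: surface receptors (Adgre1, which encodes F4/80, and Mrc1, the mannose receptor), a lysosomal membrane protein (Cd68), a secreted enzyme that cleaves bacterial cell walls (Lyz2), chains of the complement protein C1q (C1qa and C1qb), the co-receptor for lipopolysaccharide (Cd14) and receptors for antibody (Fcgr3 and Fcgr1). Several are not restricted to macrophages. Lyz2 is also made by granulocytes, and Fcgr3 is carried by granulocyte and monocyte progenitors.

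The libraries held 35016668 to 45877994 counts each. Levels are in CPM, the counts of a gene relative to its library size, with library sizes scaled by the trimmed mean of M values (TMM) over all 14 libraries, and 3 counts, the smallest amount taken as detectable, were 0.0654 to 0.0857 CPM of total counts. One gene, the noncoding Gm26917, took 17.0 to 35.4% of counts in HSPC libraries and 7.55 to 10.4% in MLL-AF9 libraries. WT replicates 1 and 2 and Mir139KO replicates 2 and 3 were under 25% and the other 4 HSPC libraries were over it, so differences are also given within each of these classes. MLL-AF9 replicates 4 and 6 were closer to each other than any other pair of the group (9.0 against 62.5 to 413.7 in chi-square per degree of freedom), but differed by more than sampling noise and were kept apart. The loss of Mir139 could not be checked with these counts, since the hairpin was listed at 0 in each of the 14 libraries. The MLL targets Hoxa7, Hoxa9, Hoxa10 and Meis1 were higher in MLL-AF9 cells in 4 of 4 cases.

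In WT HSPCs all 9 genes were detected in every library, and their order per kilobase of exon spanned a wide range. Lyz2 stood first at 1075 ± 701 CPM per kb (SD, n = 4). Fcgr3 followed at 79.1 ± 17.4 CPM per kb and Cd68 at 44.0 ± 10.0 CPM per kb (SD, n = 4). The C1q genes came next, with C1qa at 26.1 ± 14.4 and C1qb at 22.9 ± 12.1 CPM per kb (SD, n = 4), closer to each other than their spread. Adgre1 had 7.36 ± 3.81 CPM per kb, and Cd14, Fcgr1 and Mrc1 closed the order at 3.00 ± 1.2, 2.77 ± 0.69 and 2.47 ± 1.14 CPM per kb (SD, n = 4), with means that lay within the spread of each other. In MLL-AF9 cells the first 3 places were kept, with Lyz2 at 126 ± 111, Fcgr3 at 48.7 ± 18.1 and Cd68 at 39.4 ± 27.9 CPM per kb (SD, n = 6), but neighbours there lay within 1 SD of each other. Adgre1 came next at 20.8 ± 7.78 CPM per kb and then Cd14 at 7.39 ± 3.76 CPM per kb (SD, n = 6). Below them were Mrc1 at 0.830 ± 0.470, C1qb at 0.733 ± 1.11, Fcgr1 at 0.402 ± 0.509 and C1qa at 0.0943 ± 0.126 CPM per kb (SD, n = 6), again neighbours within their spread.

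**Figure D1:**
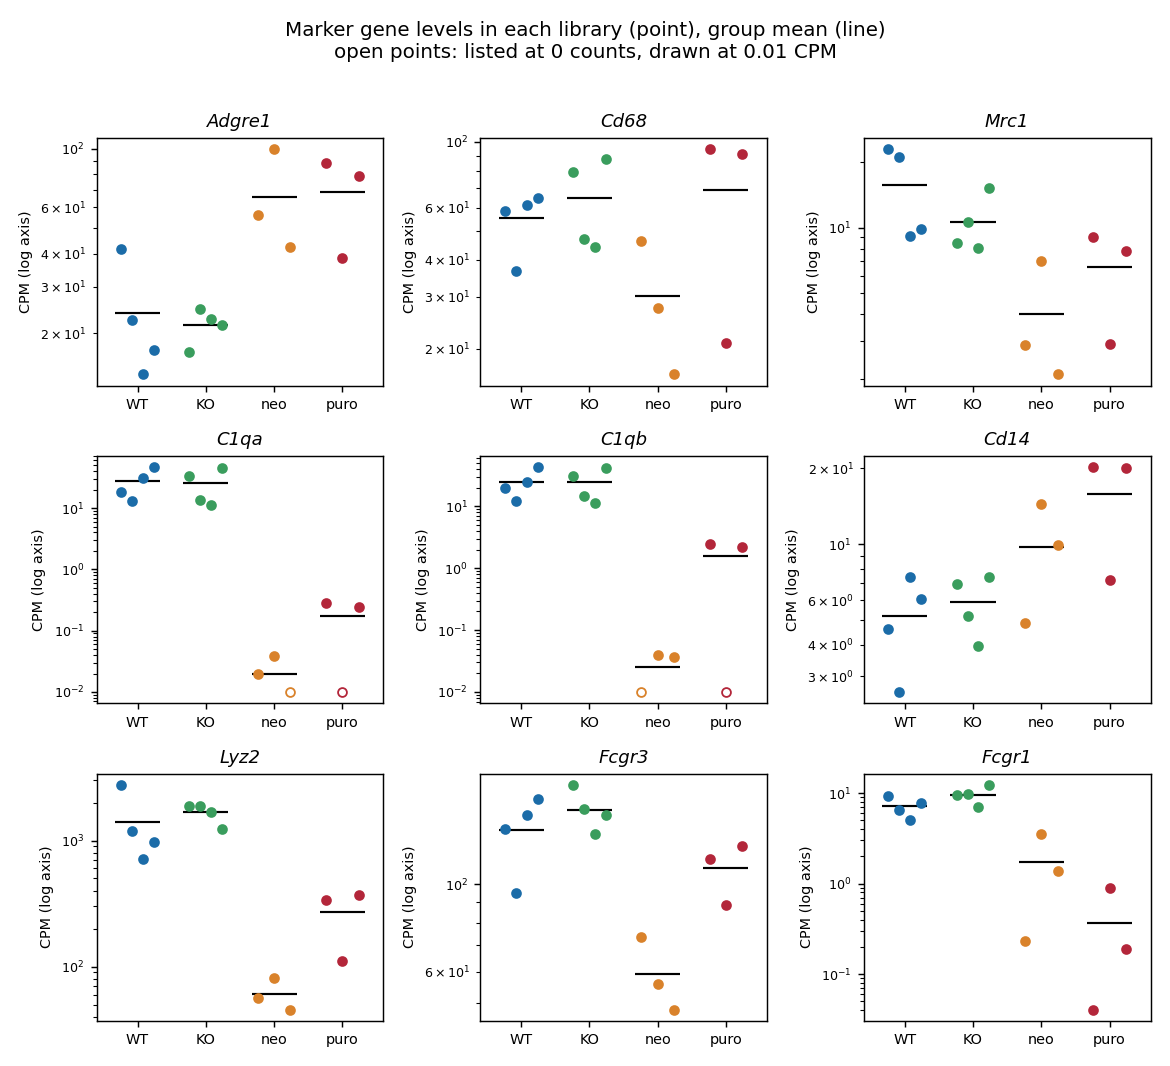
Level of each marker gene in every library, in TMM-scaled CPM on a log axis, for WT HSPCs (WT), Mir139KO HSPCs (KO) and MLL-AF9 cultures with the neo or the puro vector. Points are libraries, black lines are group means, and open points are libraries with 0 counts, drawn at 0.01 CPM. C1qa and C1qb fell from at least 11.2 CPM in all 8 HSPC libraries to at most 2.51 CPM in MLL-AF9 libraries, whereas Adgre1 lay higher in MLL-AF9 libraries.

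The marker genes moved in both directions in MLL-AF9 cells. Against WT HSPCs, 7 of the 9 genes passed the test: Adgre1 and Cd14 were higher, and C1qa, C1qb, Lyz2, Fcgr1 and Mrc1 were lower, whereas Cd68 and Fcgr3 did not pass. A gene was called when its Benjamini-Hochberg adjusted p in the edgeR quasi-likelihood test, taken over all genes tested, was under 0.05. Of all 17077 genes tested, 62.2% were called, 32.8% higher and 29.4% lower, so 7 of 9 is near the background. The groups did not overlap for 5 of the 9 genes, all lower in MLL-AF9 cells, and over all genes this held for 24.4% (lower) and 26.1% (higher). The median log2 fold change of the 9 genes was -1.59, against 0.14 for all genes tested. Against Mir139KO HSPCs, a comparison with the same 6 MLL-AF9 libraries, 8 of 9 genes were called, 2 higher and 6 lower, with a background of 69.3% called (37.3% higher, 31.9% lower). Groups were apart for 6 genes there, 1 higher and 5 lower, with backgrounds of 29.9% and 28.2%. The median of the 9 was -1.03, against 0.16 for all genes. Scaling by total counts in place of TMM moved the median of all genes to 0.69 against WT and to 0.84 against Mir139KO HSPCs, and the share of higher genes among called genes from 52.7% to 68.3% and from 53.9% to 71.4%. All members kept their direction under that scaling other than Cd68, which is reported below. In these bulk samples fewer cells of a type and less RNA per cell cannot be told apart.

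**Figure D2:**
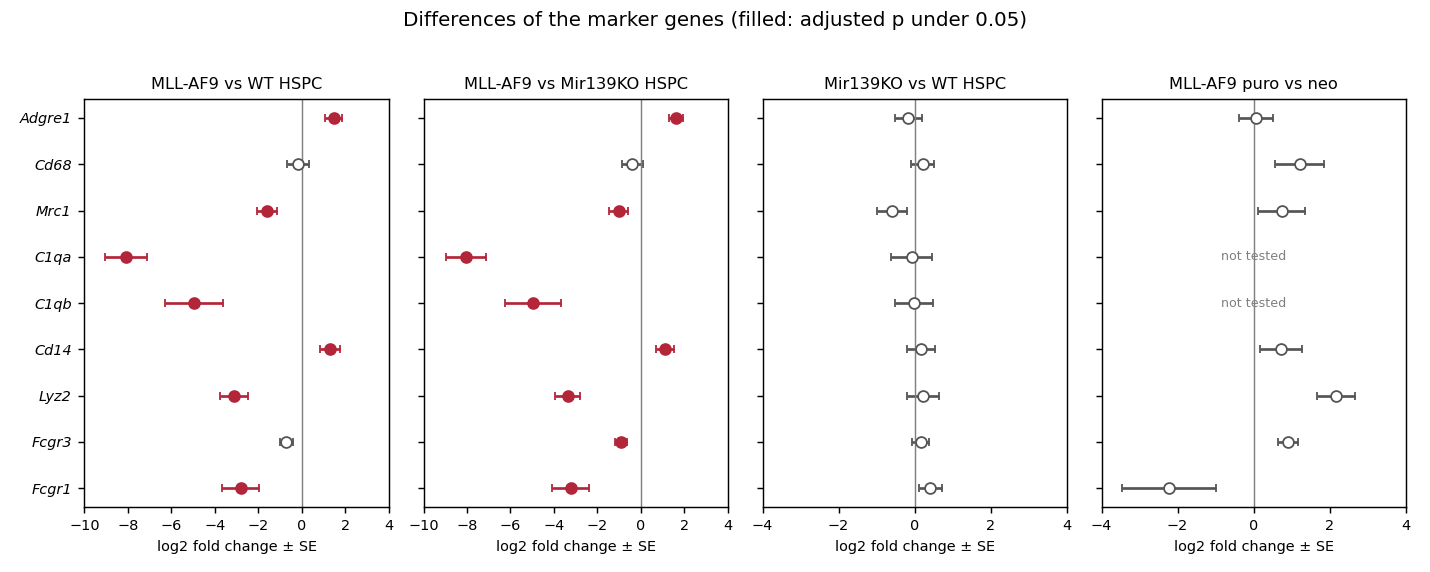
Log2 fold change of each marker gene with its standard error, on the x axis, in 4 comparisons. Filled points passed an adjusted p of 0.05 (edgeR), open points did not, and C1qa and C1qb had too few counts to be tested between the vectors. C1qa fell by 8.10 on the log2 scale against WT HSPCs, the largest difference of the 9 genes, and no gene passed between Mir139KO and WT HSPCs.

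Adgre1 (chromosome 17, 57358691 to 57483527, GRCm38), which encodes F4/80, an adhesion receptor long used as the mouse macrophage marker, was at 41.6, 22.5, 14 and 17.3 CPM in WT replicates 1 to 4. Mir139KO replicates 1 to 4 had 17.0, 24.8, 22.6 and 21.4 CPM. In MLL-AF9 cells it was at 56.1, 99.4 and 42.3 CPM with neo and at 88.0, 38.5 and 79.0 CPM with puro. WT replicate 1 lay above the lowest puro culture, and every other HSPC library was below all MLL-AF9 cultures. Adgre1 rose by 1.47 ± 0.39 on the log2 scale against WT (SE, adjusted p = 0.00629) and by 1.62 ± 0.31 against Mir139KO HSPCs (SE, adjusted p = 0.000498). Against WT libraries under 25% Gm26917 the log2 fold change was 1.00 (adjusted p = 0.102) and against those over it 2.0 (adjusted p = 0.00387). Against the matching Mir139KO libraries it was 1.44 and 1.74, called in both classes.

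Mrc1 (chromosome 2, 14229392 to 14332057) encodes the mannose receptor CD206, which binds glycans for uptake. Its levels were 22.9, 21.1, 9.15 and 9.89 CPM in WT replicates 1 to 4 and 8.52, 10.7, 8.08 and 15.1 CPM in Mir139KO replicates 1 to 4. MLL-AF9 cells had 2.86, 7.0 and 2.11 CPM with neo and 9.03, 2.92 and 7.79 CPM with puro. All MLL-AF9 cultures were below all WT libraries, but puro replicate 4 was within the Mir139KO range. Mrc1 fell by 1.59 on the log2 scale against WT (SE 0.47, adjusted p = 0.011) and by 1.03 against Mir139KO HSPCs (SE 0.43, adjusted p = 0.0488). Within the Gm26917 classes the fall against WT was -2.11 under 25% (adjusted p = 0.0147) and -0.95 over it (adjusted p = 0.173), and against Mir139KO it was -0.88 and -1.22, called in neither class. The call against Mir139KO was lost without MLL-AF9 replicate 1, 3 or 5 or without any 1 of the 4 Mir139KO libraries (log2 fold change -1.15 to -0.84, adjusted p = 0.0531 to 0.148). With total counts in place of TMM, Mrc1 was not called against WT (-1.12, adjusted p = 0.111) or Mir139KO (-0.27, adjusted p = 0.62), and with a correction for GC content it fell further (-2.52 and -2.21, both called).

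Cd68 (chromosome 11, 69664213 to 69666153), a heavily glycosylated protein of late endosomes and lysosomes, was at 58.5, 36.7, 61.3 and 64.6 CPM in WT replicates 1 to 4. Mir139KO replicates 1 to 4 had 79.3, 46.9, 44.3 and 87.3 CPM. Among MLL-AF9 cells the levels were 46.4, 27.5 and 16.4 CPM with neo and 94.3, 21.0 and 91.3 CPM with puro. The MLL-AF9 range enclosed the whole HSPC range, with replicates 4 and 6 above every HSPC library. The log2 fold change was -0.17 ± 0.49 against WT (SE, adjusted p = 0.773) and -0.40 ± 0.48 against Mir139KO HSPCs (SE, adjusted p = 0.472). With total counts it was 0.51 and 0.44, and with the GC correction 0.32 and 0.17, so Cd68 had no direction that held over the scalings. Without MLL-AF9 replicates 4 and 6, left out together after their values were seen, Cd68 was at -0.97 against WT (adjusted p = 0.0455) and at -1.2 against Mir139KO HSPCs (adjusted p = 0.00989), called lower in both. In the Gm26917 classes it was 0.00 under and -0.44 over 25% against WT, and 0.07 and -0.80 against Mir139KO HSPCs, with no call.

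Upstream sequence is shown for 4 members that differed in their course: Cd68, which was not called, and Mrc1, C1qb and Lyz2, which fell. The windows are the 200 bases from 250 to 51 before the RefSeq start (GRCm38.p6), on the gene's strand and read 5′ to 3′, and no exon of the GENCODE M21 annotation lies in them: Cd68 chr11:69666221-69666420 (minus strand), Mrc1 chr2:14229164-14229363 (plus strand), C1qb chr4:136886251-136886450 (minus strand) and Lyz2 chr10:117282323-117282522 (minus strand). Capitals mark matches, on either strand, to the core letters of factors of the myeloid lineage: GAGGAA for PU.1, TTNNGNAA for the C/EBP family, TGANTCA for AP-1 and TGCTGAC for Maf proteins.
Cd68: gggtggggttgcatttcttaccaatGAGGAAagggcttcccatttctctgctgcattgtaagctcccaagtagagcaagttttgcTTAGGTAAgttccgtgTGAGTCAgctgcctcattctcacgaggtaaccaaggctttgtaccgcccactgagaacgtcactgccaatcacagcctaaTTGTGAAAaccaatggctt
Mrc1: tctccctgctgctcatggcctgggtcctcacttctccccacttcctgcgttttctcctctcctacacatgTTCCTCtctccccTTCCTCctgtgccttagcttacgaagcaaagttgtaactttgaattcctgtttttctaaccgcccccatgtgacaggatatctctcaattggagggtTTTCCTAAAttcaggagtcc
C1qb: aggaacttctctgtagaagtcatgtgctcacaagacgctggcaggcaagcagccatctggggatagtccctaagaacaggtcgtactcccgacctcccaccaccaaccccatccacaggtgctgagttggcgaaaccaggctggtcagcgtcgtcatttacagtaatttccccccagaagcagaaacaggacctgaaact
Lyz2: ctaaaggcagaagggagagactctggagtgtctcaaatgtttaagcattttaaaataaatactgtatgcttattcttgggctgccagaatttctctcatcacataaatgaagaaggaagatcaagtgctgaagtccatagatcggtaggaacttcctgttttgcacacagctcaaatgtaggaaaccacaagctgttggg

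The Cd68 window held 1 match to the PU.1 letters, 225 to 220 bases before the start, 1 AP-1 match at 149 to 143 bases and 2 C/EBP matches at 165 to 158 and 69 to 62 bases. In the Mrc1 window there were 2 PU.1 matches on the opposite strand and 2 C/EBP matches, which overlapped each other. The windows of C1qb, Lyz2 and Fcgr1 held 0 matches to these 4 motifs. Over all 32514 windows of the same length, 18.8% held the PU.1 letters, 32.2% those of C/EBP, 5.55% those of AP-1 and 2.93% those of Maf. Of the 9 members 6 had a RefSeq window, and that of Fcgr3 overlaps an exon of the gene and is not printed. Adgre1, C1qa and Cd14 had none. These matches describe letters only.

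Lyz2 (chromosome 10, 117277331 to 117282321) encodes lysozyme M, which cleaves peptidoglycan of bacterial walls, and was the most abundant of the 9 genes in every HSPC library. It was at 2768, 1189, 718.9 and 981.3 CPM in WT replicates 1 to 4 and at 1884, 1889, 1674 and 1235 CPM in Mir139KO replicates 1 to 4. MLL-AF9 cells had 56.4, 80.6 and 45.6 CPM with neo and 335, 111 and 366.9 CPM with puro. The groups were far apart, and each puro culture lay above each neo culture. Lyz2 fell by 3.11 on the log2 scale against WT (SE 0.64, adjusted p = 0.00133) and by 3.36 against Mir139KO HSPCs (SE 0.58, adjusted p = 0.000255). It was lower, and called, in each of the 30 other settings tried against WT (-4.53 to -2.38) and the 30 against Mir139KO HSPCs (-4.77 to -2.61), among them the classes under 25% (-3.64 and -3.47) and over 25% Gm26917 (-2.45 and -3.28).

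Neutrophils also hold Lyz2. The 15 neutrophil markers summed to 4993 to 16830 CPM in WT HSPCs, 12780 to 25750 CPM in Mir139KO HSPCs and 3155 to 4659 CPM in MLL-AF9 cells. None was at 0 in an HSPC library and 1 was at 0 in MLL-AF9 replicate 6. Of the 15, 6 were called lower, 0 higher and 9 were not called in MLL-AF9 cells against WT, where 29.4% of all genes were lower, with Mpo, a primary granule enzyme, at -4.04 and Ltf, lactoferrin of secondary granules, at -3.28. Their part in the fall of Lyz2 was not tested. The neighbouring paralog Lyz1, which is mainly an intestinal lysozyme, reached at most 2.55 CPM in an HSPC library, and fell by 4.28 on the log2 scale against WT (SE 0.67, adjusted p = 0.000244). Reads could be split between these near copies, so the value of Lyz1 is uncertain. Among all 16 genes of lysozymes and lysosomal proteins (Lyz2 and Cd68 included), 3 were called higher and 3 lower against WT, with a median of -0.35. Over all genes tested 32.8% were higher and 29.4% lower, with a median of 0.14. Gpnmb, a glycoprotein of lysosomes and melanosomes, rose by 5.50 ± 0.77 (SE, adjusted p = 0.000112), and Ctsl, the protease cathepsin L, by 2.98 ± 0.48 (SE, adjusted p = 0.000291).

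C1q starts the classical complement pathway, and in most tissues macrophages make it. Its 3 chains are encoded side by side on chromosome 4, C1qb at 136880129 to 136886187, C1qc at 136889804 to 136893065 and C1qa at 136895917 to 136898803. C1qa was at 18.4, 13, 30.6 and 46.6 CPM in WT replicates 1 to 4 and at 33.7, 13.4, 11.2 and 45.7 CPM in Mir139KO replicates 1 to 4. C1qb had 19.7, 12.2, 24.5 and 43.0 CPM in WT and 30.7, 14.6, 11.3 and 41.9 CPM in Mir139KO replicates 1 to 4. In both genotypes the same libraries were high and low for the chain genes. In MLL-AF9 cells the raw counts of C1qa were 1, 2 and 0 with neo and 14, 0 and 13 with puro, and those of C1qb were 0, 2 and 2 with neo and 124, 0 and 116 with puro. Every MLL-AF9 culture lay below every HSPC library, and only replicates 4 and 6 were clearly above 3 counts.

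The fitted fall of C1qa was 8.10 on the log2 scale against WT (SE 0.95, adjusted p = 3.62e-05) and 8.04 against Mir139KO HSPCs (SE 0.94, adjusted p = 1.61e-05). C1qb fell by 4.97 in both (SE 1.33 and 1.30, adjusted p = 0.00626 and 0.00454), and C1qc by 4.97 and 5.02 (adjusted p = 0.00561 and 0.00395). With counts this low the fitted size depends on the prior count, so ratios of pooled counts are given too. C1qa was 253-fold lower in MLL-AF9 cells than in WT HSPCs (30 against 3629 counts, exact 95% interval 177 to 375), and C1qb was 28.9-fold lower (244 against 3375 counts, interval 25.4 to 33.0). Intervals cover counting error only. In the 3 neo cultures together C1qa had 3 counts, a ratio to WT of 0.000781 (exact 95% interval 0.000161 to 0.00228), and C1qb had 4 counts, a ratio of 0.00112 (0.000305 to 0.00287). Without MLL-AF9 replicate 4 the fitted values against WT were -8.73 for C1qa and -5.75 for C1qb, and without replicate 6 they were -8.60 and -5.58. Without both they were -10.61 and -10.14. Against WT libraries under 25% Gm26917, C1qa was at -7.35 (adjusted p = 0.00175) and C1qb at -4.36 (adjusted p = 0.0676), and against those over 25% they were at -8.68 and -5.47, both called. Against the Mir139KO classes the values were -6.98 and -4.05 under 25%, with C1qb not called (adjusted p = 0.0749), and -8.68 and -5.54 over it, both called.

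The balance of the chains differed in the cultures that kept C1q counts, a pattern chosen after its values were seen. C1qa held 30.3 to 35.9% of the C1qa, C1qb and C1qc counts in the 8 HSPC libraries. In MLL-AF9 replicate 4 it held 5.45% of 257 counts (exact 95% interval 3.01 to 8.97%) and in replicate 6 it held 4.89% of 266 counts (2.63 to 8.21%). The lowest bound of an HSPC library was 28.1%. These 2 cultures are the pair whose libraries were closest to each other. Among all 14 genes of complement components and receptors (C1qa and C1qb included), 12 were tested against WT, 10 were lower and 0 higher, with a median of -2.94. The shares over all genes were 29.4% lower and 32.8% higher, with a median of 0.14. Cfp, properdin of the alternative pathway, fell by 1.76 (SE 0.45, adjusted p = 0.00476) and C3ar1, the C3a receptor, by 2.48 (SE 0.44, adjusted p = 0.00054).

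**Figure D3:**
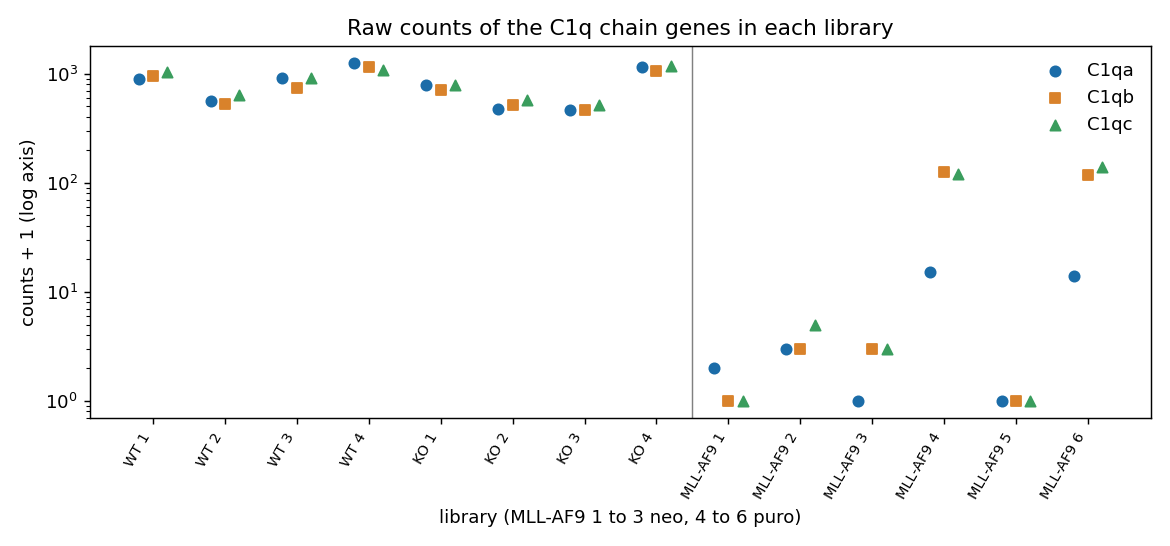
Raw counts plus 1, on a log axis, of the C1q chain genes C1qa, C1qb and C1qc in each of the 14 libraries. The 3 genes lay together at 460 to 1255 counts in HSPC libraries, and in MLL-AF9 replicates 4 and 6 C1qa lay at 14 and 13 counts, below 116 to 137 counts of C1qb and C1qc.

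Cd14, a lipid-anchored protein that hands lipopolysaccharide to the receptor Tlr4 and its partner MD-2 (encoded by Ly96), went the other way. It lies on chromosome 18, 36725067 to 36726798. Its levels were 4.61, 2.60, 7.44 and 6.10 CPM in WT replicates 1 to 4 and 6.97, 5.21, 3.96 and 7.39 CPM in Mir139KO replicates 1 to 4. MLL-AF9 cells had 4.89, 14.5 and 9.95 CPM with neo and 20.2, 7.20 and 20.1 CPM with puro. Neo replicate 1 and puro replicate 5 were within the HSPC range, and the other 4 cultures were above all HSPC libraries. Cd14 rose by 1.29 ± 0.46 on the log2 scale against WT (SE, adjusted p = 0.0287) and by 1.10 ± 0.42 against Mir139KO HSPCs (SE, adjusted p = 0.0321). The call rested on few libraries. Against WT it was lost without MLL-AF9 replicate 4 or 6 or WT replicate 1, 2 or 4 (1.02 to 1.34, adjusted p = 0.0534 to 0.0846). Against Mir139KO HSPCs it was lost without MLL-AF9 replicate 4 or 6 or any 1 of the Mir139KO libraries (0.94 to 1.19, adjusted p = 0.0529 to 0.0954). Within the Gm26917 classes it was 1.76 and 0.81 against WT and 1.42 and 0.78 against Mir139KO HSPCs, with no call.

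The receptor partners of Cd14 were also higher. Tlr4 was at 0.601 to 5.83 CPM in the 8 HSPC libraries and at 109.6 to 157.9 CPM in the 6 MLL-AF9 cultures, a rise of 5.37 ± 0.66 on the log2 scale against WT (SE, adjusted p = 4.65e-05). Ly96 was at 0.358 to 2.11 CPM in HSPCs and 1.82 to 4.07 CPM in MLL-AF9 cells, a rise of 1.64 ± 0.51 (SE, adjusted p = 0.0139). The related receptor pair Cd180 and Ly86 fell, by 3.65 (SE 0.97, adjusted p = 0.00596) and 5.24 (SE 0.69, adjusted p = 7.8e-05). Among all 15 genes of the lipopolysaccharide receptor and its signalling (Cd14 included), 14 were tested, 3 were higher and 3 lower against WT, with a median of 0.59. For all genes these were 32.8% higher and 29.4% lower, with a median of 0.14. Myd88, the adaptor of most Toll-like receptors, was listed at 0 in all 14 libraries, as were Irf8, a factor of the monocyte lineage, and the B cell gene Ms4a1. Of the exon bases, 7055 of 7055 for Irf8 and 2286 of 2576 for Myd88 lie outside other genes. Whether reads of these genes were lost in counting was not tested, so the zeros cannot be read as a lack of RNA.

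Fcgr3 (chromosome 1, 171051174 to 171064935), the low-affinity activating antibody receptor known as CD16 in mice, was at 138.7, 95.1, 150.2 and 165.2 CPM in WT replicates 1 to 4. Mir139KO replicates 1 to 4 had 179.4, 156, 134.2 and 149.9 CPM. The MLL-AF9 levels were 73.6, 56.0 and 48.0 CPM with neo and 116, 88.8 and 125.1 CPM with puro. Puro cultures overlapped the lowest WT library, whereas all MLL-AF9 cultures were below all Mir139KO libraries. The log2 fold change was -0.72 ± 0.31 against WT (SE, adjusted p = 0.0611), and Fcgr3 fell by 0.90 against Mir139KO HSPCs (SE 0.28, adjusted p = 0.0115). It was called lower against WT in 13 of the 30 other settings, such as DESeq2 (-0.79, adjusted p = 0.0444), limma-voom (-0.77, adjusted p = 0.0478), and without MLL-AF9 replicate 4 (-0.81), MLL-AF9 replicate 6 (-0.85) or WT replicate 2 (-0.90). With total counts it was -0.06 against WT and -0.15 against Mir139KO HSPCs, called in neither. Under 25% Gm26917 it was -0.53 and -0.84, and over 25% it was -1.0 and -1.02, called over 25% only.

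Fcgr1 (chromosome 3, 96282909 to 96293969) encodes CD64, the high-affinity antibody receptor of monocytes and macrophages. It was at 9.27, 6.57, 5.07 and 7.73 CPM in WT replicates 1 to 4 and at 9.43, 9.80, 6.98 and 12.4 CPM in Mir139KO replicates 1 to 4. MLL-AF9 cells had 0.234, 3.52 and 1.38 CPM with neo and 0.0404, 0.882 and 0.19 CPM with puro, which are 2 to 179 counts. All cultures were below all HSPC libraries, and puro replicate 4, at 2 counts, was under the 3 counts taken as detectable. Fcgr1 fell by 2.80 on the log2 scale against WT (SE 0.85, adjusted p = 0.0125) and by 3.23 against Mir139KO HSPCs (SE 0.84, adjusted p = 0.0045). Without MLL-AF9 replicate 2, the highest culture, the values were -3.73 and -4.15. Against WT it was -3.00 under and -2.75 over 25% Gm26917, called in neither class (adjusted p = 0.0592 and 0.0578), and against Mir139KO HSPCs it was -3.10 and -3.47, called in both.

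The other antibody receptors were not lower. Fcgr2b, the inhibitory receptor of the family, was at 32.3 to 53.2 CPM in HSPCs and 51 to 88.2 CPM in MLL-AF9 cells and rose by 0.70 ± 0.25 on the log2 scale against WT (SE, adjusted p = 0.0271). Fcgr4, an activating receptor, was at 2.60 to 13.8 CPM in HSPCs and 4.18 to 14.3 CPM in MLL-AF9 cells, and its log2 fold change, 0.74 ± 0.50 (SE), was not called (adjusted p = 0.212). Fcer1g, the signalling chain that activating Fc receptors need, fell by 1.02 (SE 0.36, adjusted p = 0.0253). Fcgr2b, Fcgr3 and Fcgr4 share stretches of sequence, and reads could be split between them. Of the 12 genes of Fc gamma receptors and their signalling (Fcgr1 and Fcgr3 included), 2 were higher and 6 lower against WT, with a median of -0.83. Among all genes tested 32.8% were higher and 29.4% lower, with a median of 0.14. Lyn, a Src family kinase, rose by 1.30 ± 0.41 (SE, adjusted p = 0.0153).

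**Figure D4:**
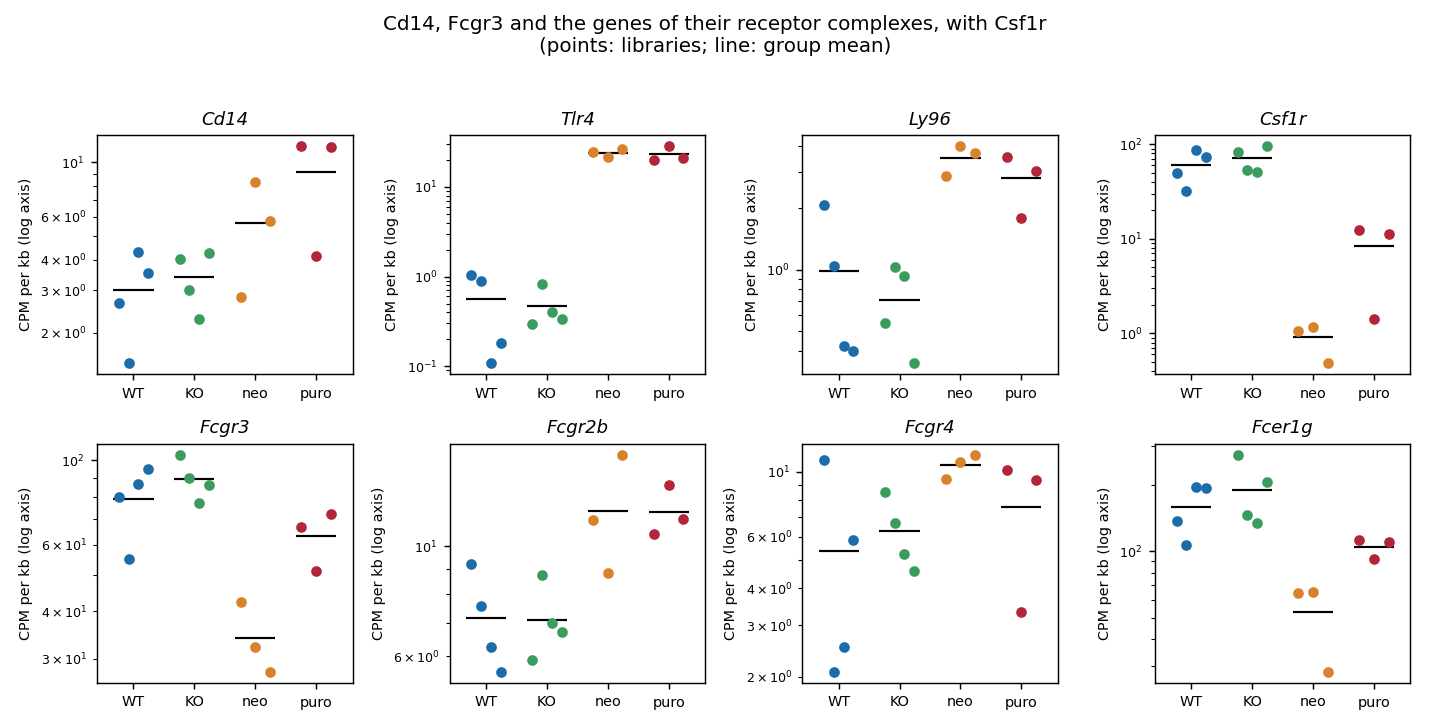
Levels of Cd14, Fcgr3, their partner genes and Csf1r in every library, in CPM per kilobase of exon on a log axis, by group (WT, KO, neo and puro as in the plot of member levels). Points are libraries and lines are group means. Tlr4 was at 109.6 to 157.9 CPM before division by length in all 6 MLL-AF9 cultures, above all HSPC libraries, and Csf1r was lowest in the neo cultures.

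No difference between Mir139KO and WT HSPCs passed a test in these genes. None of the 9 members was called by edgeR (log2 fold change -0.59 to 0.41, adjusted p = 0.9999 for each), none by DESeq2 and none by limma-voom, and 0 of 9 had an unadjusted p below 0.05 in each of the 3 tools. The background was 0% called among 15056 genes, of which 86 reached an unadjusted p below 0.05 in edgeR, 90 in DESeq2 and 76 in limma-voom. Evenly spread p-values would put a share of 0.05 of the genes there, far more than seen, so these tests were prone to miss differences. Both genotypes held libraries of both Gm26917 classes, and the part of that split in the spread was not tested. None of the 9 was called in any of the 25 other settings, among them a fit with the Gm26917 class as a covariate. The groups overlapped for all 9 genes, with backgrounds of 0.199% (higher) and 0.279% (lower) of genes that did not overlap. Mrc1 had the lowest value at -0.59 ± 0.39 and Fcgr1 the highest at 0.41 ± 0.30 (SE). The standard errors of the 9 genes were 0.23 to 0.54 on the log2 scale. A difference larger than its standard error can still fall short of a call, as for Mrc1 and Fcgr1. Differences larger than these standard errors could therefore also have been missed with these libraries. Within the Gm26917 classes Mrc1 was -1.23 under 25% and 0.28 over it, and Lyz2 was -0.15 and 0.85, with no call in either class.

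Across the 8 HSPC libraries 5 of the 9 genes did not overlap in TMM-scaled CPM between the Gm26917 classes. Of these, 4 were higher and 1 lower over 25%, whereas none of the 9 was apart between the genotypes. C1qa was at 11.2 to 18.4 CPM in the 4 libraries under 25% and at 30.6 to 46.6 CPM in the 4 over it. C1qb was at 11.3 to 19.7 and 24.5 to 43.0 CPM, Cd68 at 36.7 to 58.5 and 61.3 to 87.3 CPM, and Cd14 at 2.60 to 5.21 and 6.10 to 7.44 CPM. Adgre1 went the other way, with 22.5 to 41.6 CPM under 25% and 14 to 21.4 CPM over it. Mrc1, Lyz2, Fcgr3 and Fcgr1 overlapped between the classes. Of all 15056 genes, 31% were higher and 34.2% lower in the libraries over 25% without overlap. The TMM factors were 0.6147 to 0.6596 in the HSPC libraries over 25% and 0.9695 to 1.105 in those under it. With total counts in place of TMM, C1qa, C1qb, Cd68 and Cd14 overlapped between the classes. C1qa was then at 10.85 to 20.4 CPM under 25% and at 20.01 to 30.76 CPM over it. Adgre1 stayed apart and Lyz2 came apart, both lower over 25%.

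**Figure D5:**
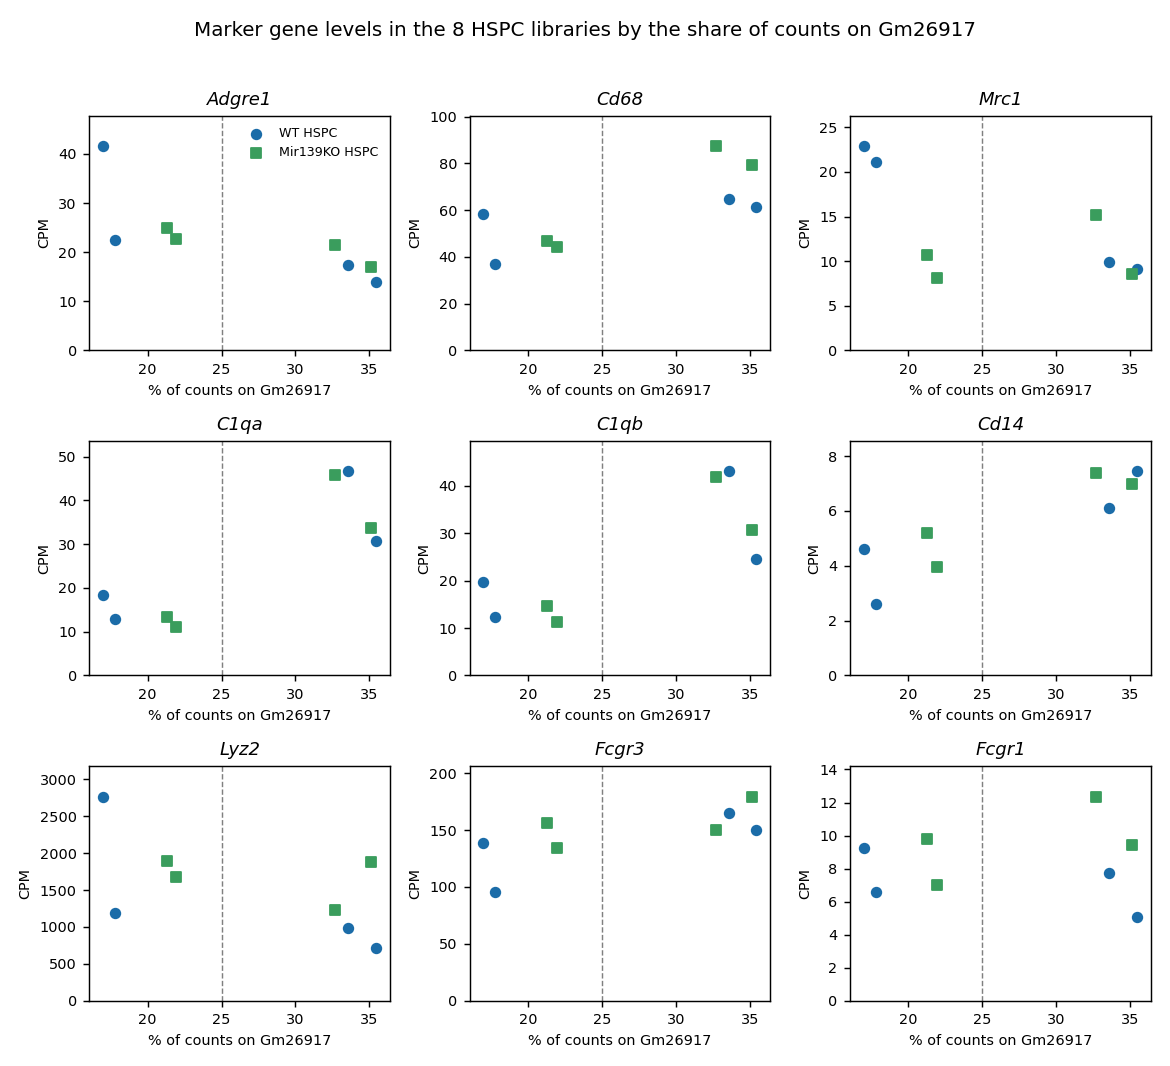
Level of each marker gene in TMM-scaled CPM (y axis) against the percent of counts on Gm26917 (x axis) in the 4 WT and 4 Mir139KO HSPC libraries. The dashed line marks 25%. C1qa, C1qb, Cd68 and Cd14 lay higher in the 4 libraries to the right of it, at 30.6 to 46.6 CPM for C1qa, and Adgre1 lay lower. With total counts in place of TMM, C1qa, C1qb, Cd68 and Cd14 overlapped across the line.

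Within the MLL-AF9 group the puro and neo cultures were compared, 3 against 3. Of the 9 members 7 had enough counts to be tested, and 0 were called by edgeR, with a background of 0.873% of 16503 genes (0.564% higher, 0.309% lower). Lyz2 and Fcgr3 had an unadjusted p under 0.05, and both were higher in all puro cultures than in any neo culture, with a background of 11.8% of genes (8.11% lower without overlap). Lyz2 differed by 2.17 ± 0.50 on the log2 scale (SE, adjusted p = 0.118) and Fcgr3 by 0.90 ± 0.26 (SE, adjusted p = 0.188). Lyz2 was called by DESeq2 (2.16, adjusted p = 0.00145), in a fit of all 14 libraries (2.13, adjusted p = 0.0198) and without MLL-AF9 replicate 5 (2.55, adjusted p = 0.0109), and not by limma-voom. For Cd68 and C1qb puro replicate 5 lay within the neo range and puro replicates 4 and 6 lay above it. Csf1r, the receptor for the monocyte and macrophage growth factor M-CSF, was at 6.11, 6.79 and 2.80 CPM with neo and 72.0, 8.23 and 65.0 CPM with puro, and at 186.9 to 549.8 CPM in HSPCs. It was lower by 3.71 against WT (SE 0.86, adjusted p = 0.00277). The vector groups also differed in the monocyte gene Ccr2, a chemokine receptor (6.30, adjusted p = 0.026), and in C5ar1, the C5a receptor (-3.00, adjusted p = 0.0283).

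The wider gene groups of monocytes and macrophages were mixed as well. Their counts against WT stand beside 32.8% of all genes tested called higher and 29.4% lower, with a median of 0.14. Of the 13 marrow macrophage genes (Adgre1 included), 12 were tested against WT, 1 was higher and 6 lower, with a median of -2.36. Vcam1, an adhesion molecule of marrow macrophages, fell by 3.38 (SE 0.59, adjusted p = 0.000468) and Siglec1, the sialic acid receptor CD169, by 2.75 (SE 0.61, adjusted p = 0.00209). Their summed level was 226 to 343.6 CPM in WT HSPCs and 81.5 to 395 CPM in MLL-AF9 cells, where Adgre1 alone gave 38.5 to 99.4 CPM. Of the 18 monocyte genes, 17 were tested, 1 was higher and 10 lower, with a median of -1.96. Cx3cr1, the fractalkine receptor, fell by 2.58 (SE 0.35, adjusted p = 9.65e-05), and Vcan, the matrix proteoglycan versican, rose by 4.77 ± 1.13 (SE, adjusted p = 0.00311). Itgam, which encodes CD11b, was at 0 to 6 counts in every library, and only 1574 of its 5024 exon bases lie outside other genes. The study reported CD11b protein on MLL-AF9 cells by flow cytometry, so these counts cannot be read as a lack of Itgam RNA.

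Scavenger and lectin receptors, the group of Mrc1 and Cd68, had 16 of 17 genes tested, 1 higher and 7 lower, with a median of -0.37. Axl, a receptor for dying cells, fell by 5.58 (SE 0.45, adjusted p = 2.91e-06), and Colec12, a scavenger receptor with a collagen stem, rose by 2.22 ± 0.87 (SE, adjusted p = 0.0399). Of 18 regulators of the lineage, 17 were tested, 4 were higher and 5 lower, with a median of 0.27. Both groups stand beside 32.8% higher and 29.4% lower over all genes, so the counts of the regulators are near the background. Klf4, a factor of monocyte differentiation, fell by 5.16 (SE 0.31, adjusted p = 3.78e-07). The related factors Mitf and Tfec rose by 3.50 ± 0.46 and 3.54 ± 0.46 (SE, adjusted p = 7.86e-05 and 7.58e-05). Against Mir139KO HSPCs, where 37.3% of all genes tested were higher and 31.9% lower, the counts of the groups were alike. Marrow macrophage genes had 1 higher and 6 lower of 12 tested, and monocyte genes 1 and 10 of 17. Scavenger and lectin receptors had 3 and 7 of 16, and regulators 4 and 5 of 17. Complement had 0 and 9 of 12, and Fc gamma receptors 2 and 8 of 12. Lipopolysaccharide signalling had 4 and 3 of 14, and lysosomal proteins 3 and 5 of 16. No gene of these groups was called between Mir139KO and WT HSPCs. Markers of other cells that an HSPC preparation can hold fell in MLL-AF9 cells too, where 29.4% of all genes were lower against WT. Lower were 7 of 9 stem and progenitor, 9 of 13 dendritic cell and 5 of 5 tested B cell markers. So were 8 of 8 T and NK cell, 6 of 6 erythroid and 5 of 5 tested mast cell and basophil markers. In the dendritic cell list 1 marker, Tcf4, was higher. Their part in the differences of the 9 genes was not tested.

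The genes whose log2 levels were most like those of each member were found by Pearson's r over the 14 libraries among 17386 genes. The points share libraries and depth and fall into HSPCs and MLL-AF9 cells, so the values are a description. C1qb was most like its neighbour C1qc (r = 0.999), then Krt18 and Cln8, and C1qa most like Mpp2 (r = 0.997), Eng and Smap2. Lyz2 was nearest to Rtp4 (r = 0.985), Tarm1 and Ms4a6c, and Fcgr3 to Oas3 (r = 0.977), Pink1 and H2-DMb1. For Fcgr1 the nearest were Asf1b (r = 0.98), Gm38037 and Slc25a5, and for Cd68 Tmem132a and Lrp1 (r = 0.962 for both) and Icosl. Adgre1 was nearest to Plcb1 and Plekhg1 (r = 0.96 for both) and Cd302, and Mrc1 to Nrip1 (r = 0.939), Ifit1 and Ms4a7. Cd14 had the weakest likeness, to Chst13 (r = 0.917), H6pd and Saa3. No 2 of the 9 members had each other among the 3 nearest genes.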

How the data were processed

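Total RNA depleted of ribosomal RNA was sequenced from 4 WT HSPC, 4 Mir139KO HSPC and 6 MLL-AF9 samples. The deposited values are raw counts per gene. The authors mapped reads to GRCm38 with STAR 2.5.3e and counted them with featureCounts 1.6.0. Whether counting used strand, and what became of reads on several genes, is not given in the sources used here. Both count tables held the same numbers for these samples, and 10 further columns were not used. Coordinates are from GENCODE M21.

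Levels were TMM-scaled CPM, with a prior count of 2 on the log2 scale. Each comparison was fitted on its own groups with edgeR 4.0.16 (limma 3.58.1, R 4.3.3, quasi-likelihood, robust) on genes that reached 10 counts in a number of samples no smaller than the smaller group, and called at an adjusted p under 0.05 over all of them. The standard error was the log2 fold change over the square root of F. Alternatives included DESeq2 1.42.0, limma-voom, other scalings, filters and thresholds, a GC correction, the Gm26917 classes, each vector alone, a replicate block and each replicate left out.

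The members, lists and tests were chosen with earlier results of these data known. Named genes were the members, fixed partner genes and, from each list and comparison, up to 2 called genes at either end of the fold changes whose mean log2 CPM reached 1. Some genes that this rule names are not reported here. On simulated data 200 of 200 genes changed by 2 on the log2 scale were called for MLL-AF9 against WT (16823 genes), and 6 unchanged genes were called. The simulation gave every gene the same dispersion, 0.05, and changed no gene with few counts. It checks that the fit runs as intended and does not give the power for genes as variable as C1qb or Fcgr1.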

Additional observations from a re-analysis of the deposited data

How the results depend on the processing

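The number of members called differed by over 1.5 times from the value reported in 3 comparisons. At an adjusted p under 0.01 it was 4 against WT and 5 against Mir139KO HSPCs, and with HSPC libraries under 25% Gm26917 it was 3 and 4. Between puro and neo it was 1 with DESeq2 and 1 in the fit of all 14 samples, and 0 to 2 with each replicate left out (2 without replicate 5, of which C1qb passed the filter through puro replicates 4 and 6 alone), where all genes gave 144 calls, against 1326 with DESeq2, 801 with all 14 samples and 5 with replicates 4 and 6 summed. Cd68 reversed against WT with total counts (0.51), the GC correction (0.32) and puro cultures only (0.33), and ranged from -0.44 to 0.02 with each replicate left out. Against Mir139KO HSPCs it reversed with total counts (0.44), the GC correction (0.17), libraries under 25% Gm26917 (0.07) and puro cultures only (0.11). Between Mir139KO and WT HSPCs, signs turned over 25% Gm26917 for Adgre1 (0.26), C1qa (0.01), C1qb (0.07) and Mrc1 (0.28), and under 25% for Cd68 (-0.06) and Lyz2 (-0.15). With each replicate left out Adgre1 ranged from -0.35 to 0.23, C1qa from -0.50 to 0.31, C1qb from -0.41 to 0.37 and Cd14 from -0.07 to 0.40. Adgre1 between puro and neo was -0.10 with replicates 4 and 6 summed and -0.17 to 0.48 with each replicate left out. The cause was not tested.

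The replicate numbers were not taken to pair the samples, since no comparison had every pair's correlation over 0.1. That check cannot show that the samples were unpaired. Between Mir139KO and WT HSPCs r was 0.719 and 0.508 for numbers 2 and 4, whose libraries shared a Gm26917 class. It was -0.631 and -0.652 for numbers 1 and 3, whose libraries did not. With the replicate block 7 members were called against WT, 7 against Mir139KO HSPCs, 0 between the genotypes and 0 between the vectors, and Cd14 against WT was 1.16 (adjusted p = 0.0721). Leaving out MLL-AF9 replicates 4 and 6 together was chosen after seeing the data. C1qa and C1qb in MLL-AF9 cells and Fcgr1 in puro cultures rest on few counts.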
